A study of Homo sapiens with 6 samples.

Results

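The genes described here encode guidance receptors and ligands: plexins, neuropilins, Eph receptors, ephrins, Slits, netrins and netrin receptors. They were chosen by symbol in the probe annotation, and 46 of the 14884 genes with a named probe are among them. All 9 plexins, both neuropilins, all 8 ephrins, and all 11 genes of netrins, DCC and UNC5 receptors that RefSeq lists under the chosen symbols had a probe. So did 13 of 14 Eph receptors, EPHB2 being the exception, and the 3 Slit genes. The symbols also cover semaphorins and ROBO receptors, but none of the 20 semaphorin genes and none of the 4 ROBO genes had a named probe, so the semaphorins, ligands of the plexins, and the receptors of the Slits were not analysed here.

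RNA levels were read on 6 arrays, 1 for each culture of ARPE-19, an established human cell line of retinal pigment epithelium. Confluent cultures were first held at low serum so that they differentiated. In serum-free medium, 3 cultures then received 250 µM FAC for 2 days, and 3 received vehicle for 2 days and are called untreated. FAC is the usual abbreviation of ferric ammonium citrate, a soluble source of iron. The replicates are labelled as biological. All are cultures of 1 line, so the p-values measure the spread between cultures.

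Guidance molecules tell a growing axon or a migrating cell where to go. Plexins are transmembrane receptors for semaphorins, and type A plexins use neuropilins as co-receptors for the secreted class of semaphorins. Ephrins are anchored in the membrane of one cell and bind Eph receptor tyrosine kinases on its neighbour, so both cells can receive a signal. Slits and netrins are secreted cues, read by ROBO receptors and by DCC and UNC5 receptors. In the eye these molecules are best known for the paths of retinal ganglion cell axons and for blood vessel growth, and in epithelia they act on adhesion and cell shape.

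The arrays were alike as wholes: medians over all probes lay between 6.03 and 6.09, and pairs of arrays correlated with Pearson's r between 0.991 and 0.995 over all probes. None of 12 measured markers of retinal pigment epithelium and none of 6 of epithelium passed the limma test (2 and 0 at an unadjusted p under 0.05). The 2 were RLBP1, higher on all FAC arrays (log2 change 0.31), and MITF, lower on all of them (-0.15). The mean level of the 12 lay between 7.38 and 7.42 on the FAC arrays and between 7.25 and 7.49 on the untreated arrays. The pigment gene TYR measured 7.43, 7.67 and 7.49 on the FAC arrays and 7.97, 6.88 and 7.86 on the untreated arrays, so untreated replicate 2 stood apart. RPE65, BEST1, LRAT and CRX had mean intensities in the lowest 33.3% of the genes tested. Markers of mesenchymal cells (4 of 9 with a probe) had a median log2 change of -0.32 and a mean level of 8.90 to 8.95 on the FAC arrays and 9.16 to 9.31 on the untreated arrays, and 1 of them, LUM, fell. TAGLN, LUM and DCN, 3 of the 4, were lower at an unadjusted p under 0.05, and VIM was at 0.0014. None of 6 measured markers of neurons and glia passed. At an unadjusted p under 0.05, 2 of them were higher (GFAP at 0.23 and SAG at 0.27) and 2 lower (SYT1 at -0.21 and S100B at -0.29), where 17.2% of all genes had such a p. Of 6 of endothelium and blood, CSF1R fell and no other passed (median change -0.06). At an unadjusted p under 0.05, 2 of these 6 were lower (CSF1R at -0.37 and KDR at -0.36). The part of all these markers in the results below was not tested.

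Levels are log2 intensities, given for replicates 1, 2 and 3 in that order. A change is the FAC mean minus the untreated mean on this log2 scale, with its SE and the adjusted p of the limma fit over all genes. A change counts as called at an adjusted p under 0.05. With FAC the semaphorin receptor gene PLXNA4 fell by 0.94 on the log2 scale, and the netrin-G1 gene NTNG1 and the Eph receptor gene EPHA4 rose. These 3 of 46 genes are 6.52%, beside 3.73% of all genes tested. Higher calls were 2 of 46, where 1.88% of all genes rose, and lower calls were 1 of 46, where 1.85% of all genes fell. Before adjustment, 11 of the 46 (23.9%) had a p under 0.05, where all genes gave 17.2%. The 3 FAC arrays all lay on one side of the 3 untreated arrays in 15 of the 46 genes (32.6%), where this held for 23.4% of all genes. The median change was 0.05 over the 46 genes and -0.0041 over all genes tested. These shares are near those of all genes, and the 46 genes are not described as having moved as a group. For each of the 43 genes that were not called, the 95% interval of the change stayed inside a 1.5-fold change in either direction. Of the 46 genes, 10 had mean intensities in that lowest 33.3%, where array signals can respond less than the RNA does.

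**Figure D1:**
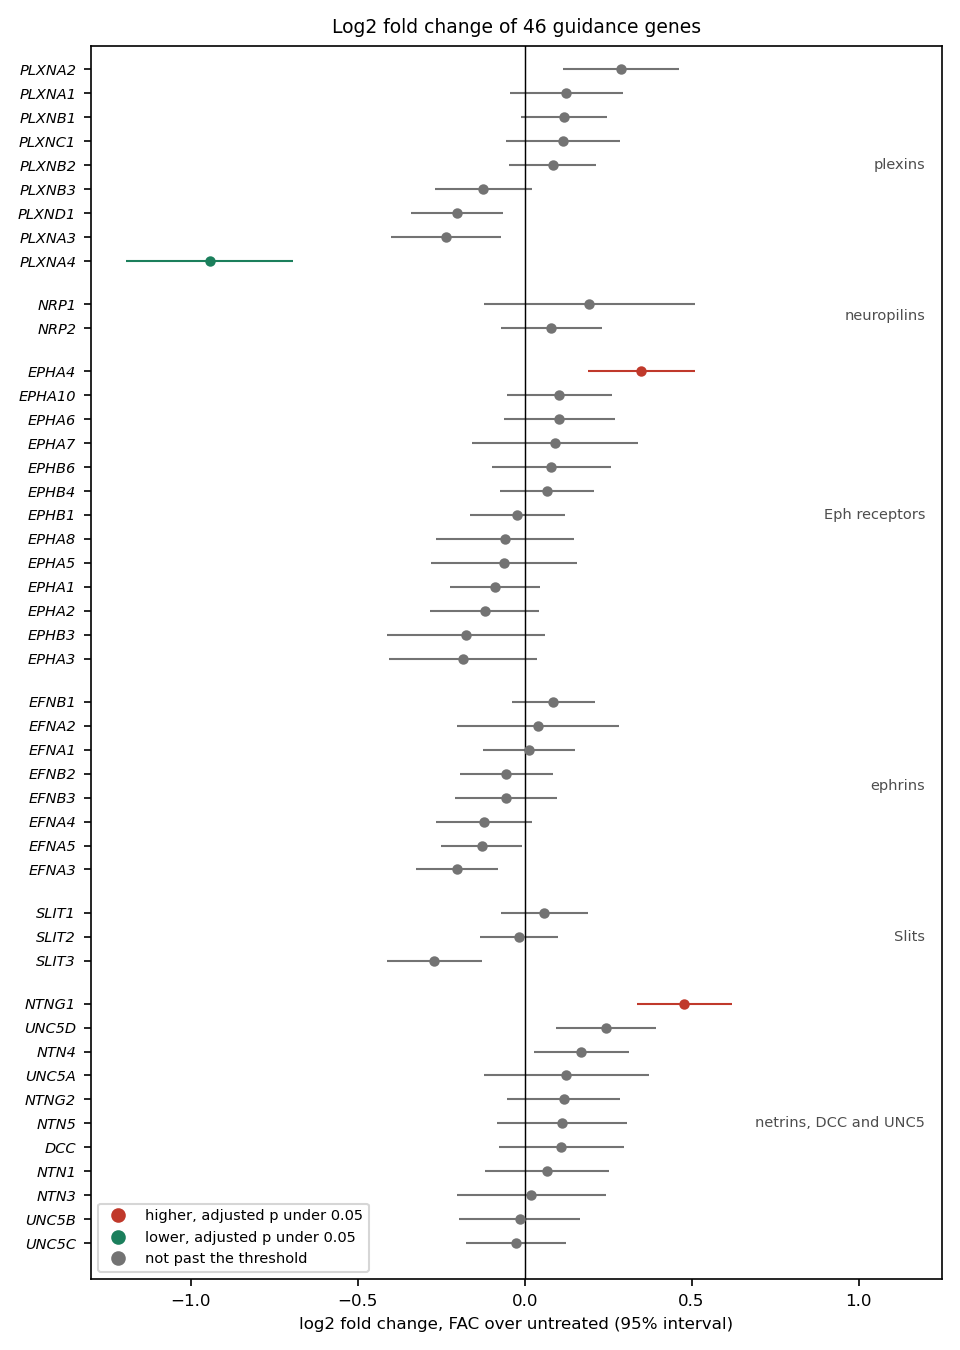
Log2 fold change of FAC over untreated (points) with 95% interval (lines) for each of the 46 genes, grouped by family and sorted by change within it. PLXNA4 lies at -0.94, apart from the other genes, and NTNG1 (0.48) and EPHA4 (0.35) are the 2 called higher.

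The windows before the gene starts of PLXNA4 and EPHA4, genes that were called in opposite directions, are shown from the RefSeq promoter table (GRCh38.p14). Each is the 250 bases before the start, written 5′ to 3′ on the gene's strand. Capitals mark matches on either strand to ACGTG, the core bound by hypoxia-inducible factors, and CAGAC, the SMAD box.
PLXNA4, chr7:132576471-132576720, minus strand: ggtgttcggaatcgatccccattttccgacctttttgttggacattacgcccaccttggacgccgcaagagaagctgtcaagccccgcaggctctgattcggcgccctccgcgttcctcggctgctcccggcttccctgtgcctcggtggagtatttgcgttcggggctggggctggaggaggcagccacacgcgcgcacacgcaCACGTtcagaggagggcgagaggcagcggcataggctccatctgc
EPHA4 window 1, chr2:221574203-221574452, minus strand: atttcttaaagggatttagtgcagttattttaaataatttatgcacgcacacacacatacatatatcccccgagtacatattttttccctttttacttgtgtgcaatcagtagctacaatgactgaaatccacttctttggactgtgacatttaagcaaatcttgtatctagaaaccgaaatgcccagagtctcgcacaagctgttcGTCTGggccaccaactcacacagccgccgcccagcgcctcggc
EPHA4 window 2, chr2:221572305-221572554, minus strand: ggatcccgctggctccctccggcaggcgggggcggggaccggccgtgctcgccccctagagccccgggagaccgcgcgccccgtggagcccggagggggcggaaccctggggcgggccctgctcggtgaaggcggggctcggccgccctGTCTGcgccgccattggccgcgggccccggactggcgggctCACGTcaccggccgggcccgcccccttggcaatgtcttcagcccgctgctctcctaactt
The table holds 1 window for PLXNA4, 2 for EPHA4 and 3 for NTNG1, and covers 38 of the 46 genes.

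PLXNA4 had 1 match to ACGTG, which began 45 bases before the start, and EPHA4 window 2 had 1 that began 60 bases before it. Over all 35116 windows of 300 bases, which also take in the first 50 bases after the start, 21.4% held ACGTG. The SMAD box matched once in each EPHA4 window and not in that of PLXNA4, and 45.3% of all windows held it. TGACNNNGC, the core of the antioxidant response element, matched once in the PLXNA4 window, from 2 bases before the start and so beyond what is printed, and 13.3% of all windows held it. CACCTG, an E-box of SNAI and ZEB factors, matched in none of the PLXNA4 and EPHA4 windows, and 20.6% of all windows held it. None of the 3 NTNG1 windows held any of the 4 motifs in these letters. The motifs do not overlap each other in these windows. A match is a stretch of letters and not a site known to be bound.

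Among the plexins, PLXNA4 was the 1 of 9 genes called. PLXNA4 encodes a receptor that works with neuropilins for secreted semaphorins and also binds membrane semaphorins directly. It measured 7.56, 7.31 and 7.36 on the FAC arrays and 8.12, 8.46 and 8.47 on the untreated arrays. Every FAC array lay below every untreated one, with a gap wider than the spread within either group. The means were 7.41 ± 0.13 in FAC-treated cells and 8.35 ± 0.20 in untreated cells (SD, n = 3 each), a change of -0.94 ± 0.11 (1.92-fold lower, adjusted p = 0.00627 by limma). It was also the 1 gene of the 46 with a change of at least 1.5-fold, and it stayed past the threshold in all 14 alternatives, with changes between -1.06 and -0.88. The RNA came from whole cultures, so fewer cells with PLXNA4 RNA and less of it per cell cannot be told apart.

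No other plexin was called. PLXNA2, another type A plexin that pairs with neuropilins, measured 8.30, 8.42 and 8.39 on the FAC arrays and 7.96, 8.22 and 8.06 on the untreated arrays. Its FAC arrays all lay above its untreated ones, but the change of 0.29 ± 0.08 did not pass (adjusted p = 0.0909). It passed in 3 of 14 alternatives, among them the fit without untreated replicate 2, the highest of its untreated arrays (adjusted p = 0.0471). The level of PLXNA4 minus that of PLXNA2 on the same array was -0.74, -1.12 and -1.02 on the FAC arrays and 0.16, 0.24 and 0.41 on the untreated arrays. That difference shifted by -1.23 between the groups. An exact permutation test (2-sided) gave p = 0.1, the smallest p that 3 against 3 arrays allow. Adjusted over the 2 pairs of genes compared in this way, the p of that permutation test was 0.1. PLXNA4 was lower and PLXNA2 higher on all FAC arrays, so the differences had to lie apart. The p was thus fixed by the values of the 2 genes and adds nothing to them.

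PLXNA3, a type A plexin best known with NRP2, measured 8.60, 8.72 and 8.49 on the FAC arrays and 8.79, 8.83 and 8.90 on the untreated arrays. These groups did not overlap either, with FAC below, and the change was -0.24 ± 0.07 (adjusted p = 0.132). PLXND1, a semaphorin receptor of blood vessels, measured 9.45, 9.47 and 9.47 on the FAC arrays and 9.70, 9.57 and 9.72 on the untreated arrays (-0.20 ± 0.06, adjusted p = 0.126). The other plexins lay closer to no change. PLXNA1 was at 0.12 (95% interval -0.04 to 0.29), PLXNB1 at 0.12 (-0.01 to 0.25), PLXNC1 at 0.12 (-0.06 to 0.29), PLXNB2 at 0.08 (-0.05 to 0.21) and PLXNB3 at -0.12 (-0.27 to 0.02). The mean intensity of PLXNC1 was in the lowest 33.3%. Across the family the FAC arrays all lay below the untreated ones in 4 genes and all above in 2, where all genes tested gave 13% and 10.4%.

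Neither neuropilin passed, before or after adjustment. NRP1, which also binds vascular endothelial growth factor, measured 9.46, 9.40 and 9.51 on the FAC arrays and 8.99, 9.60 and 9.20 on the untreated arrays. Untreated replicate 2 was the highest of all 6 arrays for NRP1 and untreated replicate 1 the lowest, so the groups overlapped, and the change was 0.19 with a 95% interval from -0.12 to 0.51 (adjusted p = 0.54). It was 0.36 without untreated replicate 2 (adjusted p = 0.0732) and 0.056 without untreated replicate 1. NRP2 changed by 0.08 (95% interval -0.07 to 0.23, adjusted p = 0.603). Neither interval reached the size of the PLXNA4 change in either direction.

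**Figure D2:**
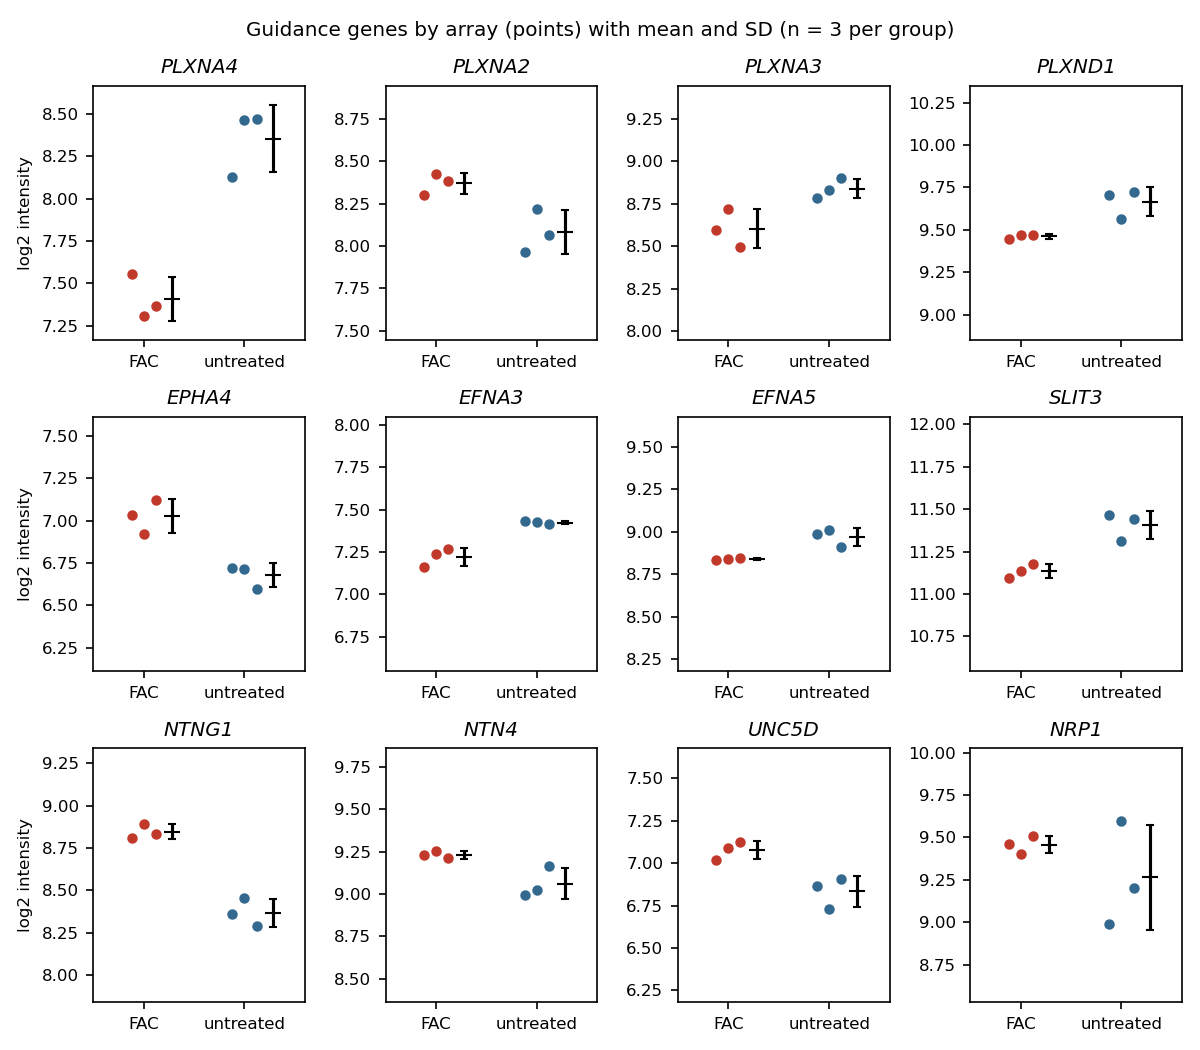
Log2 intensity on each array (points, replicates 1 to 3 from left to right) with mean and SD (n = 3 per group) for 12 guidance genes, FAC left of untreated, each axis spanning the same log2 range. The FAC and untreated arrays are apart in all panels except that of NRP1, and the gap of PLXNA4 is the widest. The 12 genes were chosen with results of these data known. Of all 46 guidance genes the groups were apart in 15 (32.6%), where all genes tested gave 23.4%.

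Of the 13 Eph receptors, EPHA4 rose and no other was called. EPHA4 is a receptor tyrosine kinase that binds ephrins of both the A and the B class. It measured 7.04, 6.92 and 7.12 on the FAC arrays and 6.72, 6.72 and 6.595 on the untreated arrays. The lowest FAC value exceeded the highest untreated value. The means were 7.03 ± 0.10 in FAC-treated cells and 6.68 ± 0.07 in untreated cells (SD, n = 3 each), a change of 0.35 ± 0.07 (1.27-fold, adjusted p = 0.0365 by limma). The call ended without any 1 of the 6 arrays (adjusted p between 0.0517 and 0.14), while the change stayed between 0.30 and 0.40. EPHA4 was the 1 Eph receptor whose groups did not overlap, or 7.69% of the family, where all genes gave 23.4%.

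The other 12 Eph receptors lay between -0.18 (EPHA3) and 0.10 (EPHA10). EPHA3 measured 5.54, 5.56 and 5.87 on the FAC arrays and 5.88, 5.74 and 5.90 on the untreated arrays, so FAC replicate 3 lay among the untreated values (adjusted p = 0.384). EPHA2, an Eph receptor widely found in epithelia, changed by -0.12 ± 0.07 (adjusted p = 0.444), EPHB4, the main receptor of ephrin-B2, by 0.07 ± 0.06 (adjusted p = 0.639), and EPHB3 by -0.18 ± 0.10 (adjusted p = 0.443). Mean intensities of 6 of the 13 Eph receptors were in the lowest 33.3%.

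None of the 8 ephrins was called by limma, 2 of them had an unadjusted p under 0.05 (25%, where all genes gave 17.2%), and 5 had a negative change (62.5%, where all genes gave 51.5%). EFNA3, a ligand tethered to the membrane by a lipid anchor, came closest. It measured 7.16, 7.24 and 7.27 on the FAC arrays and 7.43, 7.43 and 7.41 on the untreated arrays, which lay together above all FAC arrays (-0.20 ± 0.05, adjusted p = 0.0914). EFNA5, of the same class, measured 8.83, 8.84 and 8.85 on the FAC arrays and 8.99, 9.01 and 8.91 on the untreated arrays (-0.13 ± 0.05, adjusted p = 0.264). EFNA4 was lower on all FAC arrays too (-0.12 ± 0.06, adjusted p = 0.38), and EFNB1, a transmembrane ephrin, was higher on all of them (0.09 ± 0.05, adjusted p = 0.471). The remaining ephrins overlapped between the groups: EFNA1 at 0.01 ± 0.06, EFNA2 at 0.04 ± 0.10, EFNB2 at -0.06 ± 0.06 and EFNB3 at -0.06 ± 0.07.

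The genes EFNA4, EFNA3 and EFNA1 follow each other on human chromosome 1 in the RefSeq gene table, which also lists a read-through gene that joins EFNA4 to EFNA3. The arrays may therefore not fully separate these 2 genes. On the same array, EFNA3 minus EFNA1 was -0.37, -0.39 and -0.26 in FAC-treated cells. In untreated cells it was -0.08, -0.08 and -0.21, a shift of -0.21. An exact permutation test (2-sided) gave p = 0.1, the smallest the design allows, and 0.1 after adjustment over the 2 pairs compared. EFNA3 alone was lower on all FAC arrays (-0.20) and EFNA1 changed by 0.01, so the test adds little to the values of EFNA3.

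Of the 3 Slit genes, SLIT3 lay nearest the threshold without passing it. SLIT3 encodes a secreted ligand of the ROBO receptors. It measured 11.10, 11.14 and 11.18 on the FAC arrays and 11.47, 11.31 and 11.45 on the untreated arrays, with no overlap (-0.27 ± 0.06, adjusted p = 0.0565). Untreated replicate 2 was the lowest untreated array, and without it the gene passed (-0.32, adjusted p = 0.0435). SLIT3 passed in 4 of 14 alternatives, with changes between -0.32 and -0.24 over all of them. SLIT1 changed by 0.06 (95% interval -0.07 to 0.19) and SLIT2 by -0.02 (-0.13 to 0.10).

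The microRNA genes MIR218-2 and MIR218-1 overlap SLIT3 and SLIT2 in the RefSeq gene table and yield the same mature miR-218-5p. Its sequence is shown from RefSeq, with the seed (bases 2 to 8) in capitals, because 2 separate guidance genes host it.
hsa-miR-218-5p: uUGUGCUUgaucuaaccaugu
The opposite arms of the hairpins differ between the genes, and neither has the seed of miR-218-5p.
hsa-miR-218-2-3p: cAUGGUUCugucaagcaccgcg
hsa-miR-218-1-3p: aUGGUUCCgucaagcaccaugg

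MIR218-2 measured 5.23, 5.37 and 5.50 on the FAC arrays and 6.23, 5.93 and 5.73 on the untreated arrays. Each FAC value lay below each untreated value, and the gene fell (-0.60 ± 0.13, 1.52-fold lower, adjusted p = 0.0439 by limma). Its mean intensity was in the lowest 33.3%, and without 1 array it passed only when untreated replicate 3 was the one left out (adjusted p between 0.0771 and 0.167 for the other 5). It also lost its call when every probe was tested (0.142) and with the replicate block (0.109). MIR218-1 measured 6.46, 6.55 and 6.46 on the FAC arrays and 7.07, 6.74 and 6.64 on the untreated arrays, again without overlap (-0.32 ± 0.11, adjusted p = 0.167, and -0.195 without untreated replicate 1). The probes are for the gene regions, so the level of the mature microRNA was not measured apart from that of its precursor, or from the host transcript where they overlap. Of the 8 other named genes that overlap a guidance gene, none passed limma's adjusted threshold and 1 had an unadjusted p under 0.05. That gene, UNC5B-AS1, was higher on all FAC arrays (0.21 ± 0.07, adjusted p = 0.188).

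**Figure D3:**
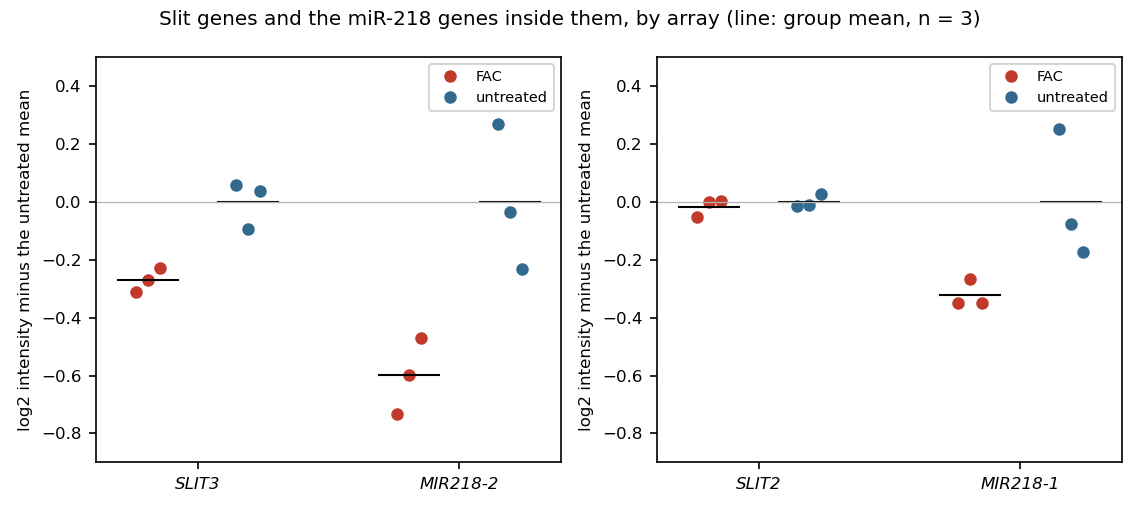
Log2 intensity minus the untreated mean of the gene on each array (points) for SLIT3 and MIR218-2 (left) and SLIT2 and MIR218-1 (right), FAC left of untreated, with group means as lines (n = 3 per group). The FAC arrays of SLIT3, MIR218-2 and MIR218-1 lie below all untreated arrays, while those of SLIT2 overlap with them.

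Among 11 genes of netrins, DCC and UNC5 receptors, NTNG1 rose and no other was called. NTNG1 encodes netrin-G1, which is held in the membrane by a lipid anchor and, unlike the secreted netrins, does not bind DCC or UNC5. It measured 8.81, 8.89 and 8.84 on the FAC arrays and 8.36, 8.46 and 8.29 on the untreated arrays. The lowest FAC array stood well above the highest untreated one. The means were 8.85 ± 0.04 in FAC-treated cells and 8.37 ± 0.08 in untreated cells (SD, n = 3 each), a change of 0.48 ± 0.06 (1.39-fold, adjusted p = 0.00804 by limma). NTNG1 stayed past the threshold in all 14 alternatives, with changes between 0.44 and 0.52.

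The secreted netrin NTN4, a component of basement membranes, measured 9.23, 9.25 and 9.21 on the FAC arrays and 8.99, 9.02 and 9.16 on the untreated arrays. The groups did not overlap, and the change did not pass (0.17 ± 0.06, adjusted p = 0.208). NTN1, the netrin after which the family is best known, changed by 0.07 ± 0.08 (adjusted p = 0.733), and NTNG2, the relative of NTNG1, by 0.12 ± 0.07 (adjusted p = 0.478).

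Among the receptors, UNC5D measured 7.02, 7.09 and 7.12 on the FAC arrays and 6.87, 6.73 and 6.91 on the untreated arrays. All FAC values were above the untreated ones (0.24 ± 0.07, adjusted p = 0.0953). The attractive netrin receptor DCC changed by 0.11 ± 0.08 (adjusted p = 0.558), and UNC5A by 0.12 ± 0.11, UNC5B by -0.01 ± 0.08 and UNC5C by -0.03 ± 0.06. Mean intensities of 3 of the 11 genes (DCC, NTN5 and UNC5C) were in the lowest 33.3%. Of the 11 genes, 9 had a positive change (81.8%, where all genes gave 48.5%), and their median was 0.11. For NTN1 and NTN3, counted among the 9, the change turned negative in at least 1 alternative (lowest -0.0043 and -0.043). FAC replicate 3, the array with the highest median over all probes (6.09), was the highest FAC array for NTN1, NTN3, NTN5, NTNG2, UNC5A, UNC5B and UNC5D. Without that array the change was 0.06 for UNC5A, 0.22 for UNC5D and -0.05 for UNC5B. It was -0.0043 for NTN1, -0.043 for NTN3, 0.05 for NTN5 and 0.06 for NTNG2, the lowest of their alternatives. For DCC, NTN4, NTNG1 and UNC5C it was 0.18, 0.18, 0.48 and 0.0085. With arrays centred on their median the change was 0.11 for UNC5A, 0.23 for UNC5D and -0.03 for UNC5B. Why this array was the highest was not tested.

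Guidance receptors act through small GTPases, kinases and collapsin response mediator proteins. Of 98 listed co-receptors, regulators and effectors, 73 had a named probe, and 4 rose and 1 fell, or 6.85% beside 3.73% of all genes. Their median change was -0.03. LRIG1 restrains receptor tyrosine kinases and is listed as a relative of LRIG2. It rose the most of the 73 and of all genes tested (1.43 ± 0.10, adjusted p = 0.000922 by limma). The list that holds it was chosen with earlier results of these data known. CDON, a cell-surface protein of the immunoglobulin family and a hedgehog co-receptor, measured 8.79, 8.93 and 8.72 on the FAC arrays and 8.18, 8.15 and 8.19 on the untreated arrays. The untreated arrays lay close together and far below all FAC arrays (0.64 ± 0.07, 1.56-fold, adjusted p = 0.00409 by limma).

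DPYSL3 encodes a collapsin response mediator protein, a family that carries semaphorin signals to the cytoskeleton. It measured 10.09, 10.04 and 10.03 on the FAC arrays and 9.42, 9.74 and 9.56 on the untreated arrays (0.48 ± 0.08, adjusted p = 0.0227 by limma). RND3, a small GTPase that opposes RhoA, measured 10.56, 10.51 and 10.46 on the FAC arrays and 10.13, 9.99 and 10.27 on the untreated arrays (0.38 ± 0.08, adjusted p = 0.0403 by limma). LIMK2, a kinase that inactivates cofilin and so stabilises actin filaments, measured 9.63, 9.78 and 9.77 on the FAC arrays and 10.19, 9.95 and 10.12 on the untreated arrays (-0.36 ± 0.08, 1.28-fold lower, adjusted p = 0.0465 by limma). The FAC arrays did not overlap the untreated ones in these genes.

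LRIG1 and CDON passed without any 1 of the arrays. DPYSL3 passed without untreated replicate 2 and not without any other array (adjusted p between 0.0534 and 0.102). RND3 passed without untreated replicate 3 and not without any other (0.0738 to 0.158). LIMK2 passed without untreated replicate 2 and not without any other (0.0959 to 0.17). These 3 genes also lost their calls when every probe was tested and with the replicate block, RND3 further with arrays centred on their median (0.363, adjusted p = 0.0528) and LIMK2 with quantile normalization (-0.33, adjusted p = 0.0633).

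**Figure D4:**
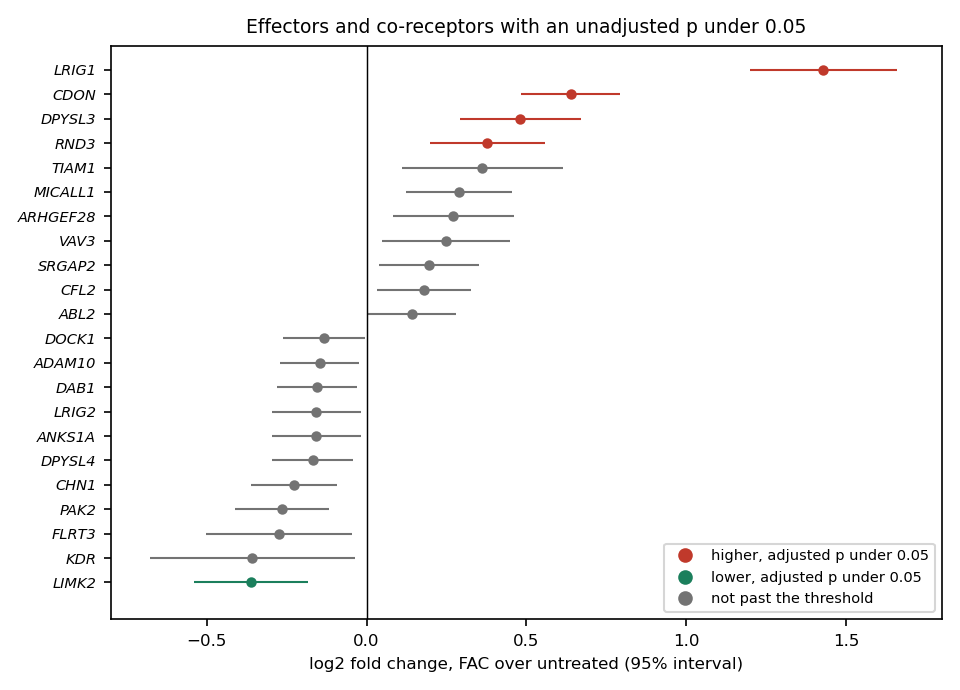
Log2 fold change of FAC over untreated (points) with 95% interval (lines) for the 22 of 73 effectors and co-receptors with an unadjusted p under 0.05. These are 30.1% of the 73, where 17.2% of all genes had such a p. LRIG1, CDON, DPYSL3 and RND3 are called higher and LIMK2 lower, and the other 17 did not pass after adjustment.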

How the data were processed

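Total RNA of 6 ARPE-19 cultures was measured on 1 array each. The authors deposited 1 table of log2 values with 53617 probes. The submitters' processing notes name RMA and Partek 6.6 but give neither a role nor an order, and a genome build is not given in the sources used here. The log2 unit was read from the values, which run from 2.41 to 14.22. Background and scan batches were not analysed here, and the number of arrays limits the precision.

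The platform annotation gives 16098 probes 1 gene symbol, none several, and leaves 37519 unnamed here. Of the 14884 genes so named, 779 have several probes, and the probe with the highest mean was used. The 46 guidance genes have 1 probe each. The comparison of FAC with untreated used limma's lmFit and eBayes (version 3.58.1, R 4.3.3, 2-sided). P-values were adjusted by Benjamini-Hochberg over the 14884 genes, and an adjusted p under 0.05 is called. The procedure was tested on simulated data. Differences between 2 genes within an array were compared with an exact permutation test (scipy 1.17.1).

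The members, the effector list, the motifs and the tests were chosen with earlier results of these data known. Values are given for members past the threshold, the 2 members of each family with the smallest p, PLXNA4, the binding partners of members that passed, and effectors past the threshold. PLXNA3, PLXND1, NTN4, the remaining members named singly and the genes that overlap members were chosen for naming after their values had been seen. As 14 alternatives the fit was repeated with a filter on dim genes, quantile normalization, median centring, a variance prior with trend and robust estimation, array weights, the mean of a gene's probes, a test of every probe, replicate numbers as blocks, and without 1 array at a time.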

Additional observations from a re-analysis of the deposited data

How the results depend on the processing

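PLXNA4 and NTNG1 stayed past the threshold under all 14 alternatives, while EPHA4 lost its call in 8 of them. Guidance genes called higher numbered 2, and 4 when the dimmest 33.3% of genes were left out, which added PLXNA2 and UNC5D, 1 when every probe was tested, 1 with the replicate block, and 1 to 2 without any 1 array. Guidance genes called lower numbered 1, and 3 without the dimmest genes, which added SLIT3 and EFNA3, 4 with the variance prior that follows intensity, 2 with array weights, and 1 to 2 without any 1 array. Effectors called higher numbered 4, and 6 with the variance prior, 5 without the dimmest genes, 5 with quantile normalization, 3 with arrays centred on their median, 2 when every probe was tested, 2 with the replicate block, and 2 to 5 without any 1 array. Effectors called lower by limma numbered 1, and 3 without the dimmest genes, 3 with the variance prior, 0 with quantile normalization, 0 when every probe was tested, 0 with the replicate block, and 0 to 1 without any 1 array. Where that count was 0, between 3 and 11 of the 73 effectors were lower at an unadjusted p under 0.05. In the main fit this held for 11 of the 73 effectors and for 1349 of all 14884 genes. The share of all genes in the alternatives was not computed, so these counts are not read as effectors having fallen. The median change of the guidance genes was 0.05, and 0.016 without the dimmest genes and 0.013 to 0.067 without any 1 array. The sign of the change turned in at least 1 alternative for 11 of the 46 genes. EFNA1 was at -0.0025 with arrays centred on their median and at -0.019 to 0.0495 without any 1 array, EFNA2 at -0.0068 with array weights and at -0.072 to 0.114 without any 1 array, and UNC5B at 0.011 with quantile normalization and at -0.077 to 0.0455 without any 1 array. Without any 1 array EFNB3 lay between -0.103 and 0.0044, and UNC5C between -0.067 and 0.014. Over all their alternatives EPHA5 lay between -0.145 and 0.040, EPHA8 between -0.142 and 0.0072, EPHB1 between -0.075 and 0.0099, NTN1 between -0.0043 and 0.150, NTN3 between -0.043 and 0.104, and SLIT2 between -0.032 and 0.014. Over all genes the 555 calls became 840 without the dimmest genes, 1026 with the variance prior, 184 with the replicate block, 111 when every probe was tested and 147 to 447 without any 1 array. The cause of these shifts was not tested. By design the fits without 1 array hold fewer samples, and the replicate block fits more terms to the same 6 arrays. The fit of every probe adjusts over more tests, and that without the dimmest genes over fewer (9923). Same-numbered arrays of the 2 groups did not deviate together (r = -0.02, -0.03 and -0.15 over all genes), and no array correlated best with its own number, so the numbers were not taken as pairs.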
